A study of Mus musculus with 12 samples.

Results

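The 10 genes described here mark the mural cells of blood vessels, the pericytes of capillaries and the smooth muscle cells of arterioles. They were chosen by symbol as known markers of these cells, and all 10 were found by Ensembl identifier among the 54532 genes of the count tables, with 7 placed with pericytes (Pdgfrb, Notch3, Kcnj8, Abcc9, Rgs5, Vtn and Anpep) and 3 with contractile smooth muscle (Acta2, Myh11 and Tagln). Gene expression was measured by polyA+ RNA sequencing of the striatum of C57BL/6J mice, in a study of SN-011, a compound that blocks the innate immune protein STING, given with transient middle cerebral artery occlusion (tMCAO), a stroke model in which the artery feeding the striatum is blocked and reopened. The groups were 3d-SN011 (tMCAO with SN-011), SN011 (tMCAO with SN-011), vehicle (tMCAO with PBS, phosphate-buffered saline) and sham (sham operation with PBS), each of 3 libraries. Both SN-011 groups carry one treatment label, the meaning of the prefix 3d is not stated, and no vehicle or sham library has it, so that an effect of the drug and of whatever 3d marks cannot be told apart. Age, sex and hemisphere are not given, nor is it stated whether replicates are separate mice, so p-values measure the spread between these samples, which may be technical.

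Pericytes wrap the capillaries of the brain inside the basement membrane, are recruited and kept there by PDGF-B from the endothelium acting on their receptor PDGFRβ, and help to form the blood-brain barrier. Arteriolar smooth muscle carries the actin and myosin that set vessel calibre, and its contractile genes are driven by serum response factor (SRF) with myocardin at CArG boxes, while Notch3 signalling from endothelial ligands maintains its differentiated state. Both cell types are known to constrict, die or change their programme after ischaemia, and PDGFRβ is also carried by the fibroblasts that build scar. In bulk tissue, fewer cells of a type and less RNA per cell cannot be told apart.

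Libraries held 15806076 to 18622053 counts, and 18537 genes had enough reads to be tested, among them all 10 described here. Values are TMM-scaled CPM, a gene's share of its library's counts, and levels between genes are compared only as TPM, which also divides by exon length. Replicates spread least in sham, with a chi-square over degrees of freedom of 4.79 to 8.85 between pairs of libraries, and more in 3d-SN011 (47.2 to 78.2), SN011 (13.9 to 57.3) and vehicle (6.86 to 19.04). The summed TPM of 8 striatal neuron markers stood at 331, 1562 and 2596 in 3d-SN011 replicates 1 to 3, against 5439 to 8974 in SN011, 8135 to 8653 in vehicle and 7772 to 8550 in sham. Fibroblast markers, 10 genes, summed to 226, 38.7 and 473 TPM in 3d-SN011 replicates 1 to 3, and to 31.0 to 34.9 in SN011, 21.6 to 26.7 in vehicle and 22.3 to 23.8 in sham. The 3d-SN011 replicates thus differed in makeup, and replicate 2 lay nearest to the other groups in fibroblast markers.

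Per exon length the 10 genes kept nearly one order in the 4 groups. Vtn was the highest, at 144 ± 12.3 TPM in 3d-SN011, 121 ± 8.38 in SN011, 108 ± 7.13 in vehicle and 129 ± 6.62 in sham (SD, n = 3 each). Rgs5 followed at 95.2 ± 2.41, 83.7 ± 3.81, 92.7 ± 11.3 and 106 ± 5.98 TPM in the same groups, then Pdgfrb, Notch3 and Acta2. Notch3 and Acta2 did not differ beyond their spread in sham (18.1 ± 2.09 and 17.7 ± 1.46 TPM). Tagln was last in all 4 groups, at 1.53 ± 0.813 TPM in 3d-SN011 and 1.26 ± 0.341 in sham. The place that changed most was that of Anpep, sixth at 16.2 ± 11.3 TPM in 3d-SN011 and ninth at 3.56 ± 0.243 in sham.

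**Figure D1:**
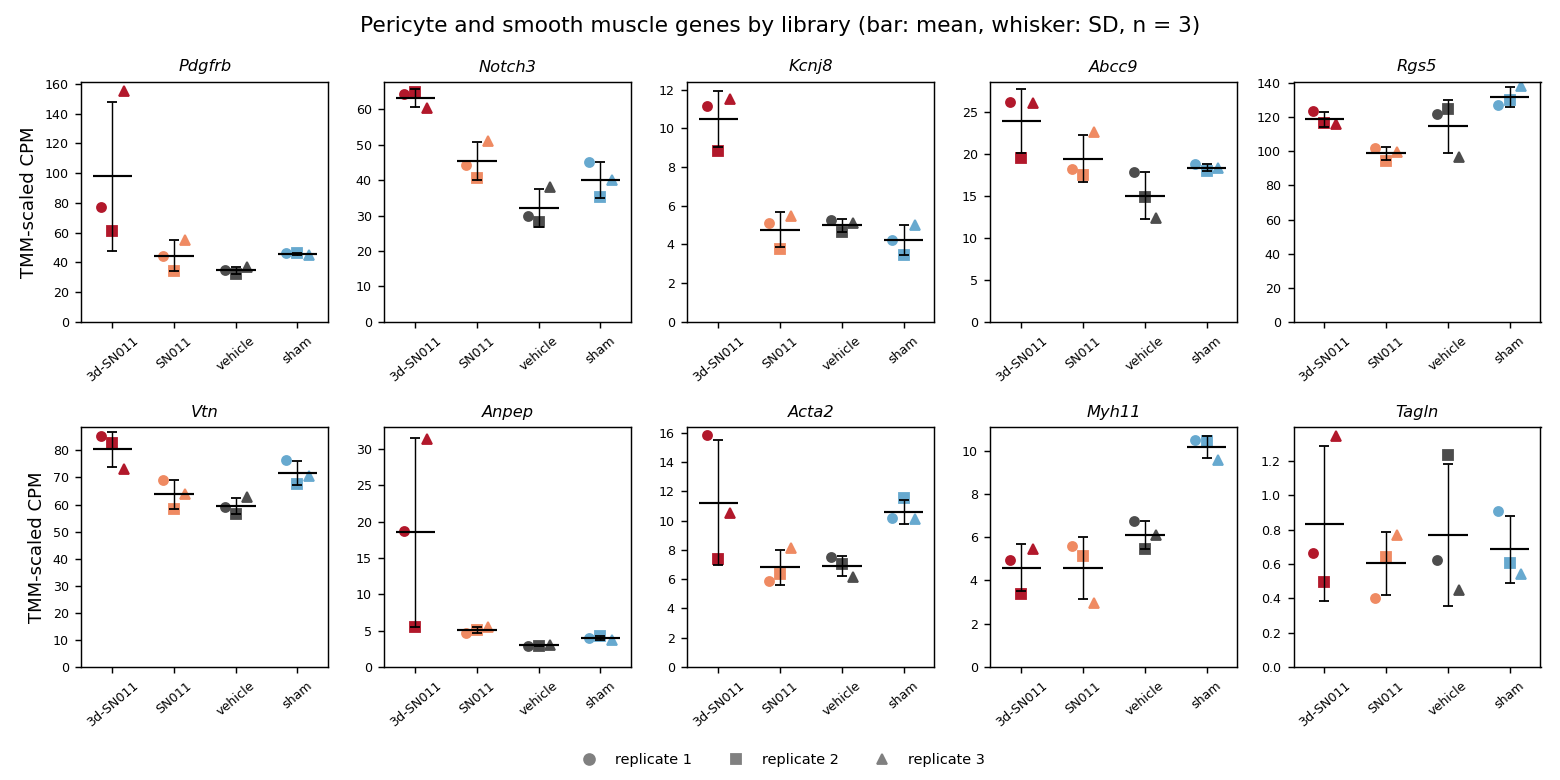
TMM-scaled CPM (vertical axes, each from 0) of the 10 genes in 12 libraries, by group (horizontal axes), where points are libraries, bars group means and whiskers SD (n = 3). Pdgfrb, Notch3, Kcnj8 and Anpep were highest in 3d-SN011, while Myh11 in sham lay above every library of the 3 occluded groups.

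In 3d-SN011 against vehicle, 6 of the 7 pericyte genes and Acta2 rose, none fell, and Rgs5, Myh11 and Tagln did not pass the test. Of all genes tested, 57.1% were called in this comparison, 28.9% higher and 28.2% lower (edgeR quasi-likelihood test at an adjusted p of 0.05, adjusted by Benjamini-Hochberg across the whole table, as in every comparison). The median log2 fold change of the 10 genes was 0.69, beside 0.01 over all genes. Groups did not overlap for 7 of the 10 and for 59.4% of all genes, so both shares lay near those of all genes, while the 7 calls were all in the higher direction. The 7 genes without overlap were not the 7 called. Acta2 was called with overlapping groups. Myh11, not called, was lower in 3d-SN011 without overlap, at a log2 fold change of -0.41 (SE 0.25). The margin was thin, with 3d-SN011 replicate 3 at 5.44 CPM and vehicle replicate 2 at 5.47.

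Pdgfrb encodes the receptor for PDGF-B on pericytes (ENSMUSG00000024620, GRCm38 chromosome 18, 61045150 to 61085061, forward strand). It stood at 77.4, 61.0 and 155 CPM in 3d-SN011 replicates 1 to 3, at 44.3, 34.2 and 54.9 in SN011, at 34.9, 32.02 and 36.9 in vehicle and at 46.3, 46.1 and 45.1 in sham. Every 3d-SN011 library lay above every library of the other groups, and replicate 3 lay far above the other two. The log2 fold change of 3d-SN011 was 1.50 (SE 0.28) against vehicle, 1.09 (SE 0.28) against sham and 1.14 (SE 0.28) against SN011 (edgeR adjusted p = 0.000589, 0.0045 and 0.00511). Without 3d-SN011 replicate 3 the values of Pdgfrb were 1.00 against vehicle, 0.59 against sham and 0.64 against SN011, all still called.

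Notch3 is the Notch receptor of mural cells, the gene mutated in the human small vessel disease CADASIL (ENSMUSG00000038146, chromosome 17, 32120820 to 32166852, reverse strand). Its CPM values were 64.4, 65.0 and 60.5 in 3d-SN011, 44.3, 40.8 and 51.2 in SN011, 30.0, 28.3 and 38.2 in vehicle and 45.2, 35.2 and 40.04 in sham. The 3d-SN011 libraries agreed closely, with a mean of 63.3 ± 2.45 CPM against 32.2 ± 5.27 in vehicle, and lay above all others. Notch3 rose by a log2 fold change of 0.98 (SE 0.14) against vehicle and 0.66 (SE 0.14) against sham (edgeR adjusted p = 8.71e-05 and 0.00137). The rise of 0.48 (SE 0.14) over SN011 passed the test (edgeR adjusted p = 0.0129), and lost its call for Notch3 without SN011 replicate 1 (0.0526) or 2 (0.0644). An antisense gene, Gm17276, shares 6.03% of its exon bases, and whether reads were counted by strand is not stated.

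Kcnj8 and Abcc9 together encode the ATP-sensitive potassium channel of mural cells, the pore Kir6.1 and the sulphonylurea receptor SUR2. They are neighbours on the reverse strand of chromosome 6, Kcnj8 (ENSMUSG00000030247) from 142564837 to 142571614 and Abcc9 (ENSMUSG00000030249) from 142587862 to 142702315, with 16247 bases and 0 annotated genes between them. Kcnj8 stood at 11.2, 8.85 and 11.5 CPM in 3d-SN011, 5.08, 3.74 and 5.48 in SN011, 5.25, 4.62 and 5.08 in vehicle and 4.25, 3.45 and 5.02 in sham. The lowest 3d-SN011 library was well above the highest of the other 9. Its log2 fold change was 1.07 (SE 0.21) against vehicle, 1.31 (SE 0.21) against sham and 1.14 (SE 0.21) against SN011 (edgeR adjusted p = 0.000869, 0.000218 and 0.00103).

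Abcc9 had smaller log2 fold changes than its partner in these comparisons. It stood at 26.1, 19.4 and 26.1 CPM in 3d-SN011, 18.1, 17.5 and 22.6 in SN011, 17.9, 14.8 and 12.4 in vehicle and 18.7, 17.9 and 18.3 in sham. Abcc9 rose against vehicle by 0.67 (SE 0.17) on the log2 scale and did not pass the test against sham, at 0.38 (SE 0.17), or against SN011, at 0.30 (SE 0.17) (edgeR adjusted p = 0.00506, 0.0723 and 0.168). Against sham Abcc9 did pass without 3d-SN011 replicate 2, at 0.51 (edgeR adjusted p = 0.0228).

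Within each library the ratio of Kcnj8 to Abcc9 in TPM was 1.40, 1.50 and 1.45 in 3d-SN011, 0.921, 0.703 and 0.798 in SN011, 0.965, 1.02 and 1.35 in vehicle and 0.744, 0.633 and 0.900 in sham. All 3d-SN011 libraries exceeded all others, by little over vehicle replicate 3, and vehicle lay above sham and SN011 without overlap. The 2 channel genes thus changed unequally in these libraries, with no test made of the ratio.

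**Figure D2:**
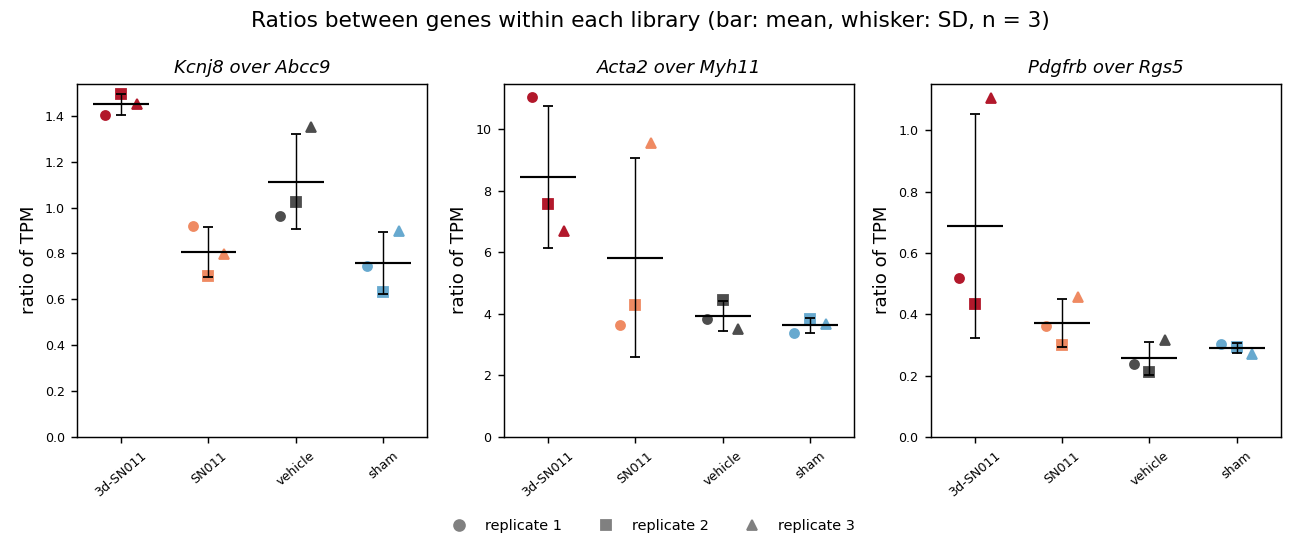
Ratios of TPM within each library (vertical axes, from 0) for Kcnj8 over Abcc9, Acta2 over Myh11 and Pdgfrb over Rgs5, by group (horizontal axes), where points are libraries, bars means and whiskers SD (n = 3). Kcnj8 over Abcc9 was 1.40 to 1.50 in 3d-SN011, and Acta2 over Myh11 was above 6 in the 3 libraries of 3d-SN011 and in SN011 replicate 3 alone among the others.

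Promoters, 250 bases before to 50 after the start, of 7 of the 10 genes were searched, from the RefSeq table for GRCm38.p6. That of Pdgfrb was left out of the search, and none was at hand for Myh11 and Tagln. Those of the neighbouring channel genes are shown because the pair changed unequally, with capitals on TGGGAA, the core bound by RBPJ, the DNA-binding partner of Notch. Kcnj8 is at chr6:142571565-142571864 and Abcc9 at chr6:142702225-142702524, both on the reverse strand.
Kcnj8: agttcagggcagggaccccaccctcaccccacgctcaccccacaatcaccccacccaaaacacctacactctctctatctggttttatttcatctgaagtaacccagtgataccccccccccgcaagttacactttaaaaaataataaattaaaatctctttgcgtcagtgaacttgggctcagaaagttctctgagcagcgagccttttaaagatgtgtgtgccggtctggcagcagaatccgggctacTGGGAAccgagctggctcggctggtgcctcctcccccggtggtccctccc
Abcc9: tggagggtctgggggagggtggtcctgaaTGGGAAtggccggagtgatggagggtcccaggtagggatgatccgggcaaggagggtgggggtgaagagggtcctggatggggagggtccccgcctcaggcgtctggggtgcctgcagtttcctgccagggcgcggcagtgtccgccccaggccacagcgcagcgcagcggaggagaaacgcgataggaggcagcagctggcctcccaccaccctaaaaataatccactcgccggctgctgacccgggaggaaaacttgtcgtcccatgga
TGGGAA, searched on both strands, occurred once in each, and 25.6% of 32851 promoters of the same length hold it. In Abcc9 it overlaps the only match to CATTCC, the MCAT element read by TEAD factors, which 14.7% of promoters hold.

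Rgs5, a regulator of G protein signalling and an abundant pericyte transcript (ENSMUSG00000026678, chromosome 1, 169655501 to 169695813, forward strand), was the one pericyte gene that did not pass the test in any comparison. It stood at 124, 116 and 116 CPM in 3d-SN011, 102, 94.6 and 99.9 in SN011, 122, 125 and 96.6 in vehicle and 127, 130 and 138 in sham. All 9 libraries of 3d-SN011, SN011 and vehicle lay below all sham libraries. Rgs5 differed by -0.41 (SE 0.11) on the log2 scale in SN011 against sham and by -0.15 (SE 0.11) in 3d-SN011 against sham (edgeR adjusted p = 0.128 and 0.262). The first of these was called by DESeq2 (adjusted p = 0.0157) and by limma voom with quality weights (adjusted p = 0.0108) for Rgs5.

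The ratio of Pdgfrb to Rgs5 in TPM was 0.519, 0.435 and 1.11 in 3d-SN011, 0.360, 0.300 and 0.456 in SN011, 0.237, 0.212 and 0.317 in vehicle and 0.302, 0.294 and 0.271 in sham. It was higher in every 3d-SN011 library than in any vehicle or sham library and overlapped with SN011.

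Vtn encodes vitronectin, a plasma and matrix glycoprotein that pericytes secrete in the brain (ENSMUSG00000017344, chromosome 11, 78499091 to 78502324, forward strand). Its CPM values were 85.5, 82.7 and 73.0 in 3d-SN011, 68.9, 58.4 and 64.1 in SN011, 59.2, 56.7 and 62.7 in vehicle and 76.6, 67.8 and 70.6 in sham. The 3d-SN011 libraries lay above SN011 and vehicle and overlapped with sham. Vtn rose by 0.43 (SE 0.10) against vehicle and by 0.33 (SE 0.10) against SN011 on the log2 scale, and the value of 0.17 (SE 0.10) against sham did not pass the test (edgeR adjusted p = 0.00337, 0.0193 and 0.188). The call over SN011 was lost for Vtn without 3d-SN011 replicate 1 (0.0602) or SN011 replicate 2 (0.0955).

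Anpep encodes CD13, aminopeptidase N, a surface peptidase of pericytes that fibroblasts and myeloid cells also carry (ENSMUSG00000039062, chromosome 7, 79821803 to 79861059, reverse strand). It stood at 18.7, 5.44 and 31.5 CPM in 3d-SN011, 4.68, 5.15 and 5.48 in SN011, 2.94, 2.93 and 3.02 in vehicle and 4.003, 4.30 and 3.75 in sham. Replicates 1 and 3 of 3d-SN011 were far above all other libraries, and replicate 2 was within the range of SN011. The log2 fold change was the largest of the 10 genes, 2.64 (SE 0.46) against vehicle, 2.20 (SE 0.44) against sham and 1.86 (SE 0.44) against SN011 (edgeR adjusted p = 0.000341, 0.000997 and 0.00414). Without 3d-SN011 replicate 3 the values of Anpep were 2.02 against vehicle, 1.58 against sham and 1.24 against SN011, and without replicate 2 they were 3.08, 2.64 and 2.29, all called.

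Fibroblast markers differed across the 3d-SN011 libraries in the same order as Anpep and Pdgfrb. All 9 of the 10 markers that could be tested rose against vehicle, none of the 10 was at 0 in any group, and Col3a1, a fibrillar collagen that rose by 5.91 (SE 1.02; edgeR adjusted p = 0.000337), stood at 106, 3.61 and 203 CPM in 3d-SN011 against 1.94, 1.95 and 1.29 in vehicle. The order of the 3d-SN011 replicates, 3 above 1 above 2, was in TPM that of the fibroblast sum and of Anpep, Pdgfrb, Kcnj8, Abcc9, Myh11 and Tagln, with replicates 1 and 3 of Abcc9 nearly tied, and not of Notch3, Vtn, Acta2 or Rgs5. Endothelial markers, at 898, 558 and 1109 TPM in these libraries, had it too. Myeloid markers, 8 of 8 higher against vehicle, summed to 10746, 6768 and 9275 TPM in 3d-SN011 replicates 1 to 3 and to 273 to 439 in vehicle. Beside these counts of fibroblast and myeloid markers, 28.9% of all genes were called higher in 3d-SN011 against vehicle. In a fit added after the data were seen, with 3d-SN011 replicate 2 as the 1 library of its group and assumed to vary like the others, 5 of the 10 genes were called against vehicle, beside 46.4% of all genes. These were Pdgfrb at 0.81, Notch3 at 1.01, Kcnj8 at 0.82, Vtn at 0.47 and Anpep at 0.87 on the log2 scale, and Abcc9 and Acta2 were not (edgeR adjusted p = 0.179 and 0.789). The same fit called 3 against sham (Notch3, Kcnj8 and Myh11), beside 47.1% of all genes, and 2 against SN011 (Kcnj8 and Vtn), beside 35.1%. That library was picked for its low fibroblast sum, and its spread was taken from the other groups, although the chi-square over degrees of freedom was 47.2 to 78.2 between 3d-SN011 replicates and 4.79 to 57.3 elsewhere. The part of fibroblasts, endothelium and myeloid cells in these values was not tested.

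**Figure D3:**
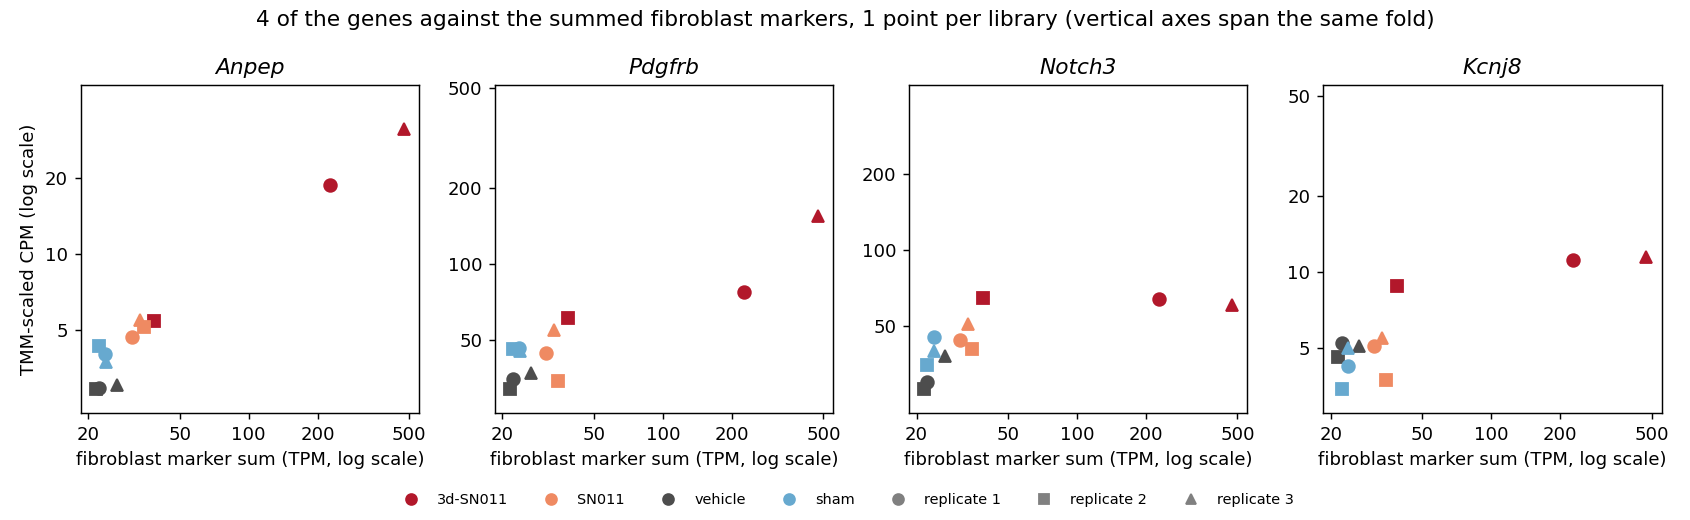
CPM of Anpep, Pdgfrb, Notch3 and Kcnj8 (vertical log axes spanning the same fold) against the summed TPM of 10 fibroblast markers (horizontal log axis), 1 point per library. Anpep, Pdgfrb and Kcnj8 were highest in the 2 libraries of 3d-SN011 with 226 and 473 TPM of fibroblast markers. Notch3 was 64.4, 65.0 and 60.5 CPM in the 3d-SN011 libraries with fibroblast sums of 226, 38.7 and 473 TPM. The part of fibroblasts in these values was not tested.

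Acta2, smooth muscle actin and the first of the 3 contractile genes (ENSMUSG00000035783, chromosome 19, 34241090 to 34255590, reverse strand), stood at 15.9, 7.36 and 10.5 CPM in 3d-SN011, 5.89, 6.38 and 8.16 in SN011, 7.50, 7.03 and 6.18 in vehicle and 10.2, 11.6 and 10.1 in sham. Vehicle and SN011 lay below sham with no overlap, and the 3d-SN011 libraries covered the range from vehicle to above sham. Acta2 rose by 0.70 (SE 0.25) against vehicle and by 0.72 (SE 0.25) against SN011, and was at 0.08 (SE 0.25) against sham, which did not pass (log2 scale; edgeR adjusted p = 0.0286, 0.0309 and 0.793). For Acta2 the call against vehicle was lost in the 6 libraries compared alone (edgeR adjusted p = 0.084), without 3d-SN011 replicate 1 (0.37, edgeR adjusted p = 0.173) and without any 1 vehicle replicate (0.0513, 0.0664 and 0.0906 for replicates 1 to 3). The call of Acta2 against SN011 was lost without 3d-SN011 replicate 1 (edgeR adjusted p = 0.175) and without SN011 replicate 1 (0.114) or 2 (0.0963).

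The promoter of Acta2 (chr19:34255324-34255623, reverse strand, GRCm38.p6, RefSeq) is shown for its CArG boxes, the sites at which SRF drives contractile genes. Capitals mark stretches that fit the box, CC then 6 central letters then GG, with at most 1 of those 6 other than A or T, on either strand, a looser form searched after the strict box was found in none.
Acta2: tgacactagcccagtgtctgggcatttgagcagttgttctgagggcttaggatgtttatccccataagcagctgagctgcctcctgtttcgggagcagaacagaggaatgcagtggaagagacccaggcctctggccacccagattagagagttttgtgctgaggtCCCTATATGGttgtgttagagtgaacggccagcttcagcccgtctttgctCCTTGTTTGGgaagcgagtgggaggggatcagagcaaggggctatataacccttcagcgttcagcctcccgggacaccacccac
Acta2 held 2 such stretches and none of the other 6 promoters searched held one, against 9.98% of all promoters. The strict CArG box occurred in none of the 7 promoters searched and in 1.63% of all. The second stretch overlaps a TGGGAA, and a single MCAT element lies upstream of both.

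Myh11, the smooth muscle myosin heavy chain and the most specific marker of the contractile state (ENSMUSG00000018830, chromosome 16, 14194535 to 14291372, reverse strand), took another course. It stood at 4.96, 3.36 and 5.44 CPM in 3d-SN011, 5.60, 5.15 and 2.96 in SN011, 6.75, 5.47 and 6.11 in vehicle and 10.5, 10.4 and 9.56 in sham. All 9 libraries of the occluded groups lay below all 3 sham libraries. Myh11 fell by 1.15 (SE 0.25) on the log2 scale in 3d-SN011 against sham (edgeR adjusted p = 0.00179). In SN011 against sham it was at -1.15 (SE 0.25) and in vehicle against sham at -0.73 (SE 0.25), neither of which passed (edgeR adjusted p = 0.0755 and 1). The SN011 value of Myh11 was called by DESeq2 (adjusted p = 0.0014), by edgeR without a filter on low counts (0.00803), by limma voom (0.00552) and by edgeR without SN011 replicate 2 (0.0405).

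The ratio of Acta2 to Myh11 in TPM was 11.1, 7.58 and 6.68 in 3d-SN011, 3.64, 4.29 and 9.55 in SN011, 3.84, 4.45 and 3.50 in vehicle and 3.36, 3.84 and 3.66 in sham. Its mean was 8.44 ± 2.31 in 3d-SN011 against 3.93 ± 0.482 in vehicle and 3.62 ± 0.243 in sham (SD, n = 3 each), with no overlap. SN011 replicate 3 alone of its group was in the range of 3d-SN011, and in that library myeloid markers summed to 3043 TPM, against 707 and 801 in the other two.

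Tagln, transgelin or SM22, an actin-binding protein of smooth muscle (ENSMUSG00000032085, chromosome 9, 45929619 to 45936058, reverse strand), was near the limit of detection, with 13, 10 and 25 counts in 3d-SN011, 7, 11 and 14 in SN011, 10, 19 and 7 in vehicle and 15, 10 and 9 in sham. A difference was not detectable at these counts in any comparison, and the SE of its log2 fold change was 0.50 in 3d-SN011 against vehicle. The antisense gene Gm48529 covers 62.4% of Tagln exon bases, and Pcsk7, also on the opposite strand, 5.43%. As counting by strand is not stated, reads of these genes cannot be told apart, and the level of Tagln given here may be affected.

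**Figure D4:**
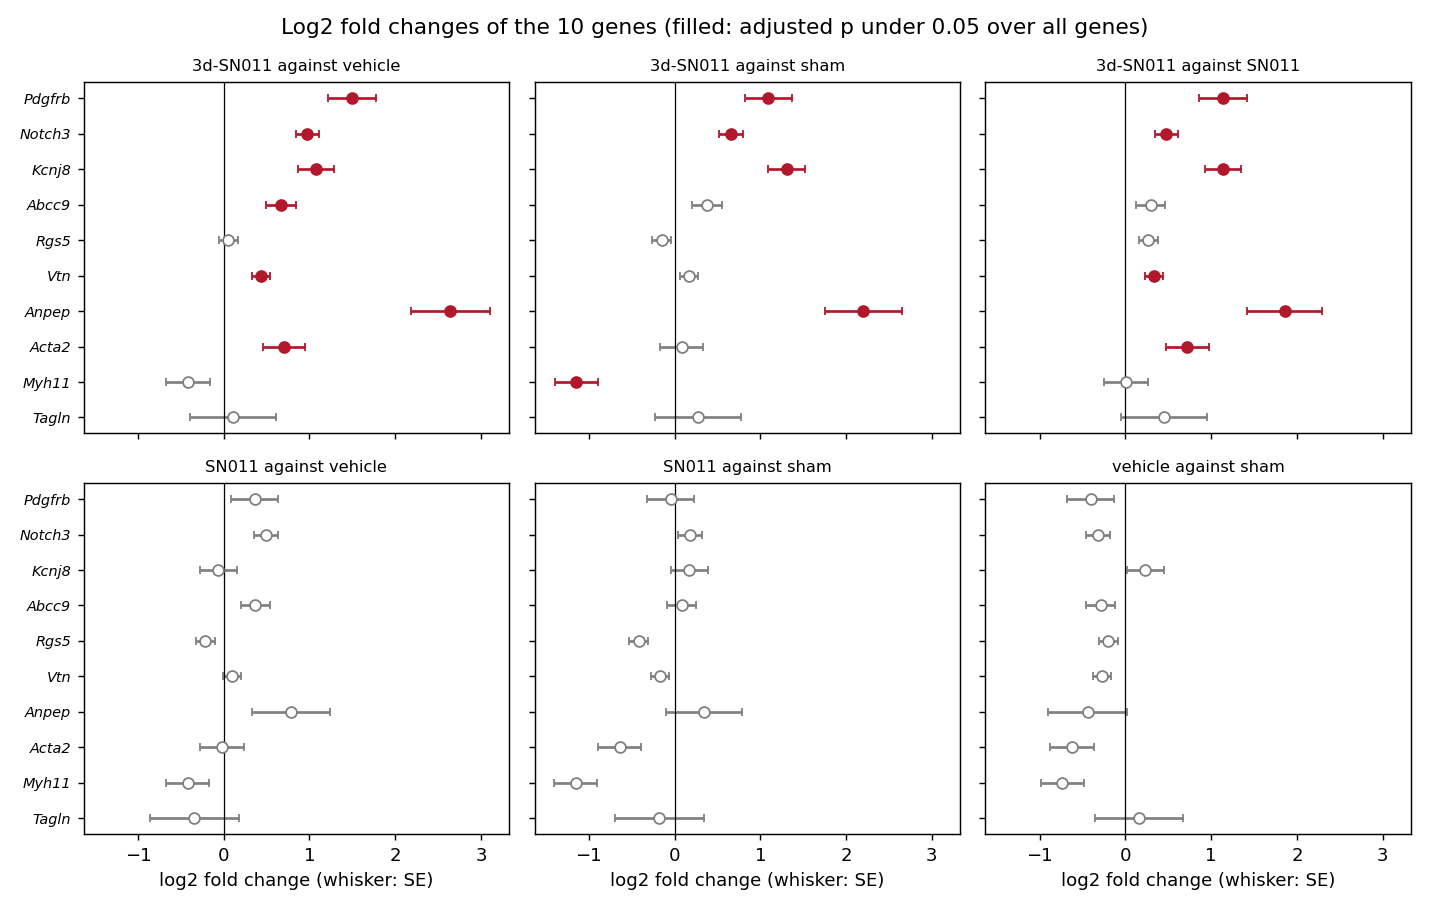
Log2 fold changes of the 10 genes (horizontal axes, whiskers SE) in the 6 comparisons between groups, filled where the adjusted p is under 0.05 over all genes. Calls occur in the 3 comparisons of 3d-SN011, and Myh11 against sham is the one gene called lower.

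Against sham, 3d-SN011 had 4 of the 10 genes higher (Pdgfrb, Notch3, Kcnj8 and Anpep) and 1 lower (Myh11), where 57.6% of all genes were called, 29.8% higher and 27.9% lower. Groups did not overlap for 7 of the 10 and for 63.3% of all genes. The median over the 10 was 0.33, beside 0.01 over all genes. Against SN011, 6 were higher (Pdgfrb, Notch3, Kcnj8, Vtn, Anpep and Acta2) and 0 lower, where 46.4% of all genes were called, 23.6% higher and 22.9% lower. Groups did not overlap for 5 of the 10 and for 50.3% of all genes. Without SN011 replicate 2, 3 of the 10 were called against SN011, beside 32.9% of all genes, and in the 6 libraries compared alone 4 were, beside 32.6%, with Vtn and Acta2 no longer called (edgeR adjusted p = 0.134 and 0.13). These comparisons and that with vehicle share the 3d-SN011 libraries.

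The comparison of SN011 with vehicle, occluded groups that differ by label in the drug and carry no 3d prefix, called 0 of the 10 genes and 0.0162% of all genes, 3 in number. An unadjusted p under 0.05 was reached by 1 of the 10, Notch3, and by 11.1% of all genes. DESeq2 also called 0, beside 2.39% of all genes, and limma voom with quality weights called 1, Notch3 (adjusted p = 0.0255), beside 6.36% of all genes. Notch3 stood at 45.4 ± 5.30 CPM in SN011 and 32.2 ± 5.27 in vehicle with no overlap, a log2 fold change of 0.50 (SE 0.14; edgeR adjusted p = 0.19). Anpep also did not overlap, at 5.10 ± 0.402 CPM in SN011 and 2.96 ± 0.0535 in vehicle, beside 16.3% of all genes whose groups did not overlap.

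SN011 against sham called 0 of the 10 and 0.113% of all genes, and 3 of the 10 had an unadjusted p under 0.05, beside 12.8% of all genes. Groups did not overlap for 4 of the 10 (Rgs5, Anpep, Acta2 and Myh11), beside 25.6% of all genes. DESeq2 called 2 (Rgs5 and Myh11) and limma voom 3 (those and Acta2), all lower, where they called 3.44% and 10.1% of all genes. Vehicle against sham also called 0 of the 10 and 0% of all genes by edgeR. There DESeq2 and limma voom called 0 of the 10, beside 0.027% and 0.173% of all genes. An unadjusted p under 0.05 was reached by 4 of the 10, Notch3, Vtn, Acta2 and Myh11, each with a negative log2 fold change, beside 2.52% of all genes. Groups did not overlap for 7 of the 10, beside 13.2% of all genes, and 8 of the 10 had a negative log2 fold change, with a median of -0.30. Endothelial markers, which share the vessels, had a median of -0.27 over 12 genes, 0 of them called, and sums of 421 to 433 TPM in vehicle against 498 to 531 in sham.

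Other genes of mural cells and of their signals are described from lists that hold none of the 10. In 3d-SN011 against vehicle, where 57.1% of all genes were called, 28.9% higher and 28.2% lower, 8 of 15 other pericyte genes rose and 1 fell, with a median of 1.02. The parathyroid hormone receptor Pth1r, at 18.2, 13.05 and 14.9 CPM in 3d-SN011 against 3.56, 3.25 and 4.25 in vehicle, rose by 2.06 (SE 0.22; edgeR adjusted p = 1.62e-05). The one that fell was Rgs4, by 3.45 (SE 0.35; edgeR adjusted p = 1.58e-05), a gene that striatal neurons also express, beside 8 of 8 striatal neuron markers that fell in the same comparison.

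Of 15 other contractile genes, 13 could be tested, of which 7 rose and 4 fell, with a median of 0.60. In this comparison, 3d-SN011 against vehicle, 57.1% of all genes were called, 28.9% higher and 28.2% lower. Smoothelin, Smtn, stood at 27.1, 16.5 and 29.5 CPM in 3d-SN011 against 7.25, 7.74 and 9.52 in vehicle, a rise of 1.57 (SE 0.25; edgeR adjusted p = 0.00019). Tropomyosin 1, Tpm1, which many cell types express, fell by 1.34 (SE 0.21; edgeR adjusted p = 0.000184). Of 6 genes of the SRF and myocardin group, Myocd had too few reads to test, 1 rose and 3 fell, with a median of -0.72. Srf itself fell to 38.9, 32.5 and 49.4 CPM in 3d-SN011, against 82.1, 88.0 and 92.3 in vehicle, by 1.12 (SE 0.16), and its coactivator Mrtfb by 1.80 (SE 0.22; edgeR adjusted p = 0.000105 and 3.09e-05). Neurons also express Srf and Mrtfb, and the part of the loss of neuronal transcripts in these falls was not tested.

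Among the ligands and other receptors of the PDGF family, 3 of 5 rose and 0 fell against vehicle, with a median of 0.60. The share called was near the 57.1% of all genes called in that comparison, of which 28.9% were higher and 28.2% lower. Pdgfb, the endothelial ligand of PDGFRβ, stood at 73.7, 49.1 and 52.9 CPM in 3d-SN011 against 27.5, 26.0 and 30.2 in vehicle, and rose by 1.07 (SE 0.16; edgeR adjusted p = 0.000105). Pdgfa rose by 0.81 (SE 0.14; edgeR adjusted p = 0.000291). Transcripts of ligand and receptor were thus both higher in 3d-SN011 in bulk tissue, and which cells held the Pdgfb transcripts was not tested.

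Of 12 Notch ligands, partners and targets, 6 rose and 0 fell, beside 57.1% of all genes called, with a median of 0.86. Notch1 rose by 1.38 (SE 0.16) and Rbpj, the DNA-binding partner of Notch receptors, by 0.98 (SE 0.14; edgeR adjusted p = 2.3e-05 and 8.35e-05). Rbpj stood at 69.0, 64.9 and 66.6 CPM in 3d-SN011 against 31.9, 40.1 and 29.9 in vehicle, and its log2 fold change stood beside 0.98 for Notch3. Only 8 of the 12 had a positive log2 fold change. Mean CPM was lower in 3d-SN011 than in vehicle for Jag1 (14.8 and 16.1), Jag2 (35.3 and 41.5), Dll1 (8.47 and 8.66) and Hey1 (55.8 and 66.3). In 3d-SN011 against sham 7 of the 12 rose and 2 fell, with a median of 0.96, where 57.6% of all genes were called.

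Of 8 partners of vitronectin, integrins and the plasminogen activator system, 7 rose and 0 fell against vehicle, with a median of 2.68. Beside this and the other counts against vehicle given here, 57.1% of all genes were called, 28.9% higher and 28.2% lower. Plau, urokinase, rose by 4.40 (SE 0.45) and the integrin subunit Itgb1 by 1.44 (SE 0.14; edgeR adjusted p = 1.58e-05 and 1.54e-05), far above the 0.43 of Vtn. Endothelial markers had 9 of 12 higher and 0 lower, with a median of 0.87, among them Ly6c1 at 1.06 and the glucose transporter Slc2a1 at 1.32. In 3d-SN011 against sham 5 of the 12 were higher and 2 lower, with a median of 0.61, where 57.6% of all genes were called. Against vehicle, astrocyte markers had 5 of 6 higher, and choroid plexus markers 5 of 6 lower, a list whose sum also varied within sham from 256 to 7140 TPM.

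**Figure D5:**
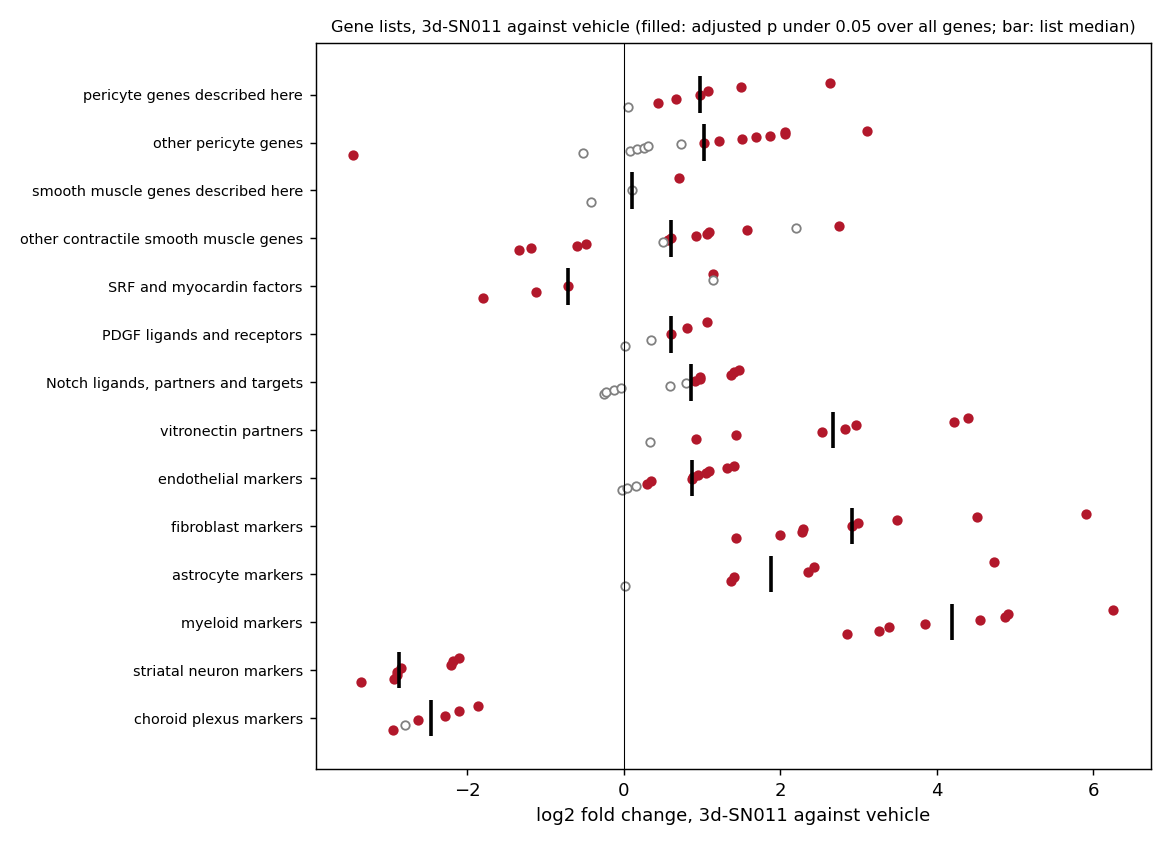
Log2 fold changes in 3d-SN011 against vehicle (horizontal axis) of each tested gene of 14 lists (rows), filled where the adjusted p is under 0.05 over all genes, with bars at list medians. The pericyte genes described here have a median of 0.98, the smooth muscle genes 0.11, endothelial markers 0.87 and fibroblast markers 2.92.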

How the data were processed

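The authors deposited raw counts, whole numbers for each Ensembl gene in each library. HISAT2, featureCounts and the mm10 build are named, per the submitters' processing notes, without versions, and neither the annotation nor a strand option is stated there. No rows of the tables lacked a gene. Symbols matched 54409 of 54532 identifiers. Positions and exon lengths for TPM are from GENCODE M21 (GRCm38), which may differ from the authors' annotation.

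Counts were fitted in R 4.3.3 with edgeR 4.0.16. filterByExpr (minimum count 10) kept 18537 genes, libraries were scaled by TMM, and all 12 entered one quasi-likelihood fit with group as the only term, so groups share one estimate of the spread. SE is the log2 fold change over the root of F. The fit was tested on simulated counts. Groups and numbers come from the titles. Alternatives were RLE scaling, DESeq2 1.42.0, limma 3.58.1 voom with quality weights, no filter, the 6 libraries compared, the 9 without 3d-SN011, a replicate block, a test against a log2 fold change of 1 and leaving out each library.

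Genes and lists were chosen with earlier results of these data known, and the lists of endothelial, fibroblast, myeloid, astrocyte, choroid plexus and striatal neuron markers serve as context. Genes of other lists given with a log2 fold change are among each list's 2 called with the smallest adjusted p in 3d-SN011 against vehicle. Genes of like pattern are the 3 with the smallest root mean square difference in centred log2 CPM (prior count 2) among genes of at least 1 CPM. Promoters are from RefSeq. Ratios, promoter searches and plots used Python 3.11.15 and matplotlib 3.10.9.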

Additional observations from a re-analysis of the deposited data

How the results depend on the processing

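Of 1140 recomputed log2 fold changes of the 10 genes, 1066 kept their direction and side of the threshold, 26 lost a call, 11 gained one and 37 changed sign. The number called in SN011 against sham, 0 by edgeR beside 0.113% of all genes, was 2 by DESeq2, beside 3.44%. It was 1 with no filter on low counts, beside 2.27%, and 3 by limma voom with quality weights, beside 10.1%. In SN011 against vehicle the number was 1 by limma voom, beside 6.36%. A test against a log2 fold change of 1 called 1 gene in 3d-SN011 against vehicle, 1 against sham and 0 against SN011, beside 18.5%, 19% and 6.56% of all genes. With 3d-SN011 replicate 2 as the 1 library of its group, a setting chosen after seeing the data, 3 were called against sham and 2 against SN011. Leaving out 1 library at a time gave 6 to 7 calls in 3d-SN011 against vehicle, beside 48.8% to 58.1% of all genes. For 3d-SN011 it gave 5 to 6 against sham, beside 48.2% to 58.3%, and 3 to 7 against SN011, beside 32.9% to 48.9%. SN011 against sham had 0 to 1, beside 0% to 3.62%. The 6 libraries compared alone gave 6, 5 and 4 calls in 3d-SN011 against vehicle, sham and SN011, beside 49.8%, 53.2% and 32.6%. In that fit Acta2 lost its call against vehicle (edgeR adjusted p = 0.084). Every value that changed sign was of a gene not called in that comparison. In 3d-SN011 against SN011, Myh11 was at -0.00788 with no filter, -0.28 by limma voom, -0.0282 in the 6 libraries alone and -0.45 with replicate 2 alone, and Abcc9 at -0.00531 with replicate 2 alone. Acta2 in 3d-SN011 against sham was at -0.000944 by limma voom and -0.53 with replicate 2 alone, and in SN011 against vehicle at 0.000427 in the 9 libraries without 3d-SN011. Tagln in 3d-SN011 against vehicle was at -0.0741 by limma voom and, with replicate 2 alone, at -0.64, with -0.47 against sham and -0.30 against SN011. With 1 library left out, Rgs5 in 3d-SN011 against vehicle ranged over -0.0635 to 0.11, Acta2 in 3d-SN011 against sham over -0.25 to 0.31 and in SN011 against vehicle over -0.17 to 0.0803, and Myh11 in 3d-SN011 against SN011 over -0.24 to 0.19. Kcnj8 in SN011 against vehicle ranged over -0.17 to 0.0829, and in SN011 against sham Pdgfrb ranged over -0.22 to 0.11 and Abcc9 over -0.0413 to 0.15. Tagln ranged over -0.41 to 0.62 in 3d-SN011 against vehicle, -0.25 to 0.54 against sham and -0.0674 to 0.72 against SN011, over -0.61 to 0.17 in SN011 against vehicle, -0.39 to 0.0735 in SN011 against sham and -0.35 to 0.43 in vehicle against sham. The cause was not tested. Between libraries with the same replicate number, deviations from group means had correlations of -0.293 to 0.143, with 2 of 18 over 0.1. This cannot exclude a pairing, as the 3d-SN011 replicates also differed in makeup. With a replicate block 7, 5 and 5 genes were called in 3d-SN011 against vehicle, sham and SN011, beside 55.4%, 55.7% and 43.9% of all genes. The block fit called 0 in the other comparisons, beside at most 0.151%. Low counts limit Tagln most, at 7 to 25 a library.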

Other observations

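The genes whose pattern over the 12 libraries lay nearest to each of the 10 were found by the root mean square difference of log2 CPM, each gene's mean taken off, among 16191 other genes. Anpep lay nearest to Fn1, fibronectin, at 0.14, then to Vwf, von Willebrand factor, at 0.18 and Nid1, a basement membrane nidogen, at 0.21. Pdgfrb lay nearest to Ggt5 at 0.15 and to the endothelial receptor Robo4 at 0.17, and Acta2 to Mrvi1 at 0.20 and to the endothelial phosphatase Ptprb at 0.21. Vtn had Caskin2 at 0.0950 and Mfge8, a secreted bridging protein, at 0.0964, Notch3 had Aldh2 at 0.10, Kcnj8 had Shmt1 at 0.13 and Rgs5 had E2f3 at 0.11. Myh11 lay no nearer than 0.26 to any gene, with Cxcl12 the first. These distances are descriptions over libraries that share 4 groups.

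Set against the summed TPM of 12 endothelial markers, Kcnj8 was 1.85% ± 0.434 in 3d-SN011, 1.68% ± 0.098 in vehicle and 1.19% ± 0.229 in sham, with 3d-SN011 and vehicle overlapping. Pdgfrb was 7.44% ± 1.81 in 3d-SN011, 5.44% ± 0.390 in vehicle and 6.00% ± 0.243 in sham, with overlap of all 3, and Notch3 was 3.66% ± 1.53, 3.42% ± 0.578 and 3.55% ± 0.300 in the same groups, also with overlap. Anpep was 1.72% ± 0.804 in 3d-SN011, above every library of vehicle (0.617% ± 0.0154) and sham (0.697% ± 0.0622). On this scale Rgs5 was 12.1% ± 4.54 in 3d-SN011, below every library of vehicle (21.7% ± 2.89) and sham (20.8% ± 1.71). Myh11 was 0.263% ± 0.0314 in 3d-SN011, below vehicle (0.692% ± 0.0659) and sham (0.958% ± 0.0487) without overlap, and Acta2 was 2.23% ± 0.658 in 3d-SN011, overlapping with vehicle (2.70% ± 0.240) and below sham (3.47% ± 0.382; SD, n = 3 each). In SN011 the means were 1.50% for Kcnj8, 6.53% for Pdgfrb, 4.52% for Notch3, 0.996% for Anpep, 17.4% for Rgs5 and 2.51% for Acta2. For each of these SN011 overlapped with 3d-SN011, while Myh11, at 0.476% in SN011, was higher there than in 3d-SN011 without overlap. The endothelial sum depends most on its highest genes. Mean TPM in 3d-SN011 and vehicle was 255 and 103 for Slc2a1, 216 and 82.6 for Cldn5 and 131 and 63.3 for Ly6c1. It differed little for Flt1 (25.2 and 24.6), Kdr (8.63 and 8.90) and Tek (15.9 and 14.4). The ratios therefore depend on which endothelial genes are summed. No test was made of these ratios.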
